A study of Nannochloropsis oceanica with 18 samples.

Results

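Among the chromatin regions that the study tabulated for Nannochloropsis oceanica IMET1, 530 of 3803 (13.94%) lay inside the chromosomes, held less H3K27ac than their local background in nitrogen-replete cells and held H3K36me2 at or above it. They are called acetylation-poor regions here. The regions were selected on measured values. A region was taken when it was at least 1000 and under 12000 bp wide, lay at least 50000 bp from either end of its chromosome (the far end being set by the last tabulated region), had a mean ratio of pileup to local background under 1 for H3K27ac in C0, and had a ratio of at least 1 for H3K36me2 in C0. The regions were thus chosen by H3K27ac and H3K36me2 in C0, and their values in C0 and every difference from C0 in the same marks are given as a description without a test. The 530 regions made up 22.05% of the 2404 regions that met the width and position limits, and 93.64% of the 566 of those with H3K27ac under 1.

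N. oceanica is a unicellular marine alga that builds up storage lipid when nitrogen runs out. Acetylation of lysine 27 on histone H3 (H3K27ac) marks active promoters and enhancers in animals. Lysine crotonylation (Kcr) is a related short-chain acylation, made from crotonyl-CoA and found with acetylation at active genes in mammals. Dimethylation of lysine 36 on histone H3 (H3K36me2) is written by SET-domain methyltransferases, and in yeast such methylation over transcribed bodies recruits a deacetylase complex that keeps acetylation there low.

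The study used chromatin immunoprecipitation sequencing (ChIP-seq) on wild-type IMET1 cells. C0 cells were taken from nitrogen-replete f/2 medium in logarithmic growth, N1 cells after 1 day and N2 cells after 2 days in nitrogen-free f/2 medium. The labels name 2 libraries for each of the 3 marks in each of the 3 conditions, 18 libraries in 9 groups. The deprived cells had also been washed, moved to new medium and kept in weaker light than the C0 culture, and in comparisons with C0 the loss of nitrogen, the transfer and the light cannot be told apart. The labels list other antibodies than the methods do, with 1 catalogue number for both histone H3 marks, and the ones actually used cannot be told.

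The unit throughout is the ratio of pileup (coverage by sequenced fragments) to lambda (the background expected at that place), where 1 means no enrichment. The inverse of the smallest step of the pileup, a guide to depth, was 1.86 to 7.29 M fragments over the libraries, and in the acetylation-poor regions the median region of a library held between 17.0 and 161 such steps. H3K36me2 in C0 and Kcr in N2 had identical values in both of their libraries and were counted once. In the other 7 groups the 2 libraries differed by less than independent counts would (chi-square per degree of freedom 0.541 to 0.681 over the 530 regions). Both libraries are therefore printed in place of a standard deviation, and p-values measure the spread between these libraries only, which may be technical although the study calls them biological.

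In C0, H3K27ac in the 530 regions had a median ratio of 0.397 in library 1 and 0.385 in library 2, against 2.59 and 2.58 over all 3803 regions. In 374 of the 530 (70.57%) the mean ratio was below 0.5, and only 12 lay between 0.9 and 1. H3K36me2 in C0 had a median of 1.39, against 1.18 over all regions, and 19 of the 530 were below 1.1. The region nearest below the acetylation limit, chr22:83434-86943, had a mean H3K27ac ratio of 0.997, and the first region above it, chr17:595773-598322, had 1.03. The lowest H3K36me2 ratio that was taken was 1.03, at chr20:447694-449474, and the highest that was left out was 0.988, at chr18:743264-744535. The width limit left out 236 regions as too short and 1 as too long that otherwise met the rule.

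The lowest H3K27ac ratios in C0 were at chr9:1120828-1122154 (0.169 and 0.209), chr1:1595350-1596975 (0.216 and 0.168) and chr23:516092-517525 (0.22 and 0.175). The highest H3K36me2 ratios in C0 were 2.00 at chr26:262088-263626, 1.98 at chr1:178807-180619 and 1.97 at chr1:575834-581472. H3K36me2 thus stayed within 1.03 to 2.00 times its background over all 530 regions.

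Kcr, which the rule did not use, was low in the same regions. Its median ratio in C0 was 0.528 in library 1 and 0.527 in library 2, against 2.55 and 2.58 over all regions, and 506 of the 530 (95.5%) were under 1 in both libraries. The Kcr ratio in C0 is divided by nearly the same background as the H3K27ac ratio that chose the regions (Pearson r = 0.988 between the backgrounds of library 1 of each mark over the 530 regions). The Kcr pileup before division was also low, with medians of 10.5 and 10.1 in the 530 regions against 60.5 and 60.8 over all regions. Across the 530 regions, mean H3K27ac and Kcr in C0 had a Pearson r of 0.719, a description of points that share a background.

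**Figure D1:**
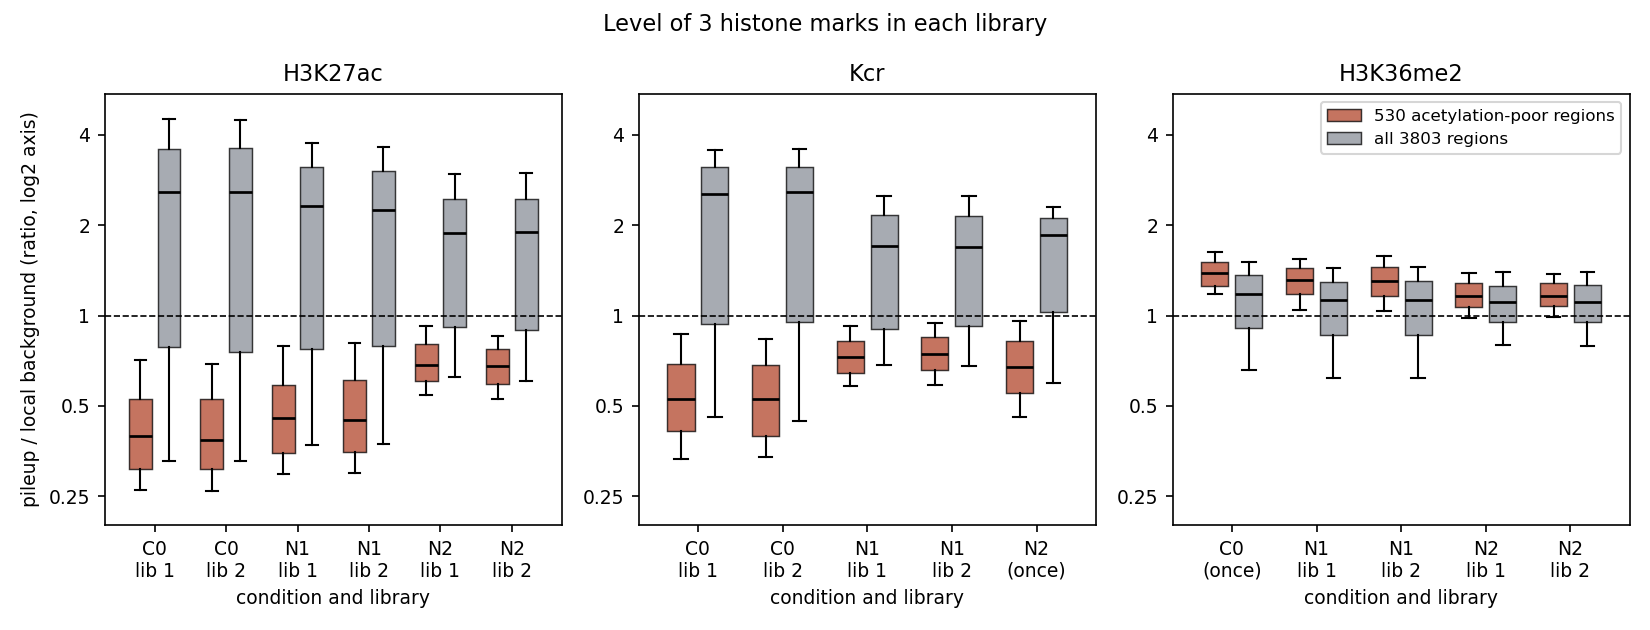
Ratio of pileup to local background (log2 axis) of each mark in each library, for the 530 acetylation-poor regions (red) and all 3803 regions (grey). Boxes span the quartiles with the median as a line, whiskers run between the tenth and ninetieth percentiles, the dashed line is a ratio of 1, and libraries with identical values are drawn once. The red boxes lie below 1 for H3K27ac and Kcr in every library and above 1 for H3K36me2.

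Most regions had the same order of marks in every condition. H3K27ac and Kcr were below 1 in every library of all 3 conditions in 435 of the 530 regions (82.1%). Over all regions this was so for 21.6%. H3K36me2 was at least 1 in every library in 398 of the 530 (75.1%), against 66.5% of the 1076 interior regions of the same widths with both H3K27ac and H3K36me2 at 1 or more in C0, and 47.5% of all regions. Both conditions were met by 316 of the 530 (59.6%) and by 13.1% of all regions. The rule fixed the H3K27ac and H3K36me2 values in C0 that enter these counts. The mean H3K36me2 ratio exceeded those of H3K27ac and Kcr in all 3 conditions in 514 regions (97.0%). Mean H3K27ac reached 1 in 17 regions in N1 and in 15 in N2, and mean Kcr in 19 in C0, 24 in N1 and 41 in N2. Over all regions the shares were 71.4% and 73.0% for H3K27ac, and 74.3%, 71.8% and 75.6% for Kcr.

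The set was spread over all 30 chromosomes, with 9 to 28 regions on each, or 8.88 to 32.2 per Mb. Its regions were narrow, with a median width of 2097 bp against 3004 bp over all regions and 5740.5 bp in the 1076 acetylated interior regions with H3K36me2. Together they covered 1379808 bp, 6.3% of the length of all regions. Wider regions were less depleted of acetylation. With the regions split into 4 classes of width, the median H3K27ac ratio in C0 was 0.36 in the narrowest class (1000 to 1523 bp) and 0.443 in the widest (3185 to 10570 bp), and the median H3K36me2 ratio in N1 was 1.25 and 1.38 in the same classes.

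Acetylation-poor regions mostly stood alone between acetylated ones. Both neighbouring regions had an H3K27ac ratio of 2 or more in C0 for 283 of the 530 (53.4%), against 41.9% for the 1076 acetylated regions with H3K36me2 and 39.5% for the 2404 interior regions of the same widths. A neighbour under 1 was found for 23.4% of the 530, against 45.8% of the 2404. The gap to the nearer neighbour had a median of 410 bp, against 529 bp. Of runs of consecutive acetylation-poor regions, 471 were of 1 region, 28 of 2 and 1 of 3. These shares follow in part from the rule, which fixes the acetylation of the region in the middle, and no test was run on them.

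H3K36me2 showed the opposite profile, which in C0 follows in part from the rule. The rule required a C0 ratio of at least 1 in the regions and set no limit on their neighbours. Within the regions the median ratio for C0 was 1.39, for N1 1.31 and for N2 1.16. The next region on the left had medians of 1.02 (C0), 0.963 (N1) and 1.03 (N2), and the next on the right 1.02 (C0), 0.962 (N1) and 1.04 (N2). For H3K27ac the next region on the left had medians of 2.83 (C0), 2.50 (N1) and 2.07 (N2). The median H3K27ac of the flanks was thus lower, and that of the regions themselves higher, in each later condition. The fall in the flanks was not particular to this set. For the 2404 interior regions of the same widths, the next region on the left had H3K27ac medians of 2.61 (C0), 2.30 (N1) and 1.91 (N2). The rule took regions with low H3K27ac in C0, which favours a rise from C0 in the regions themselves.

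**Figure D2:**
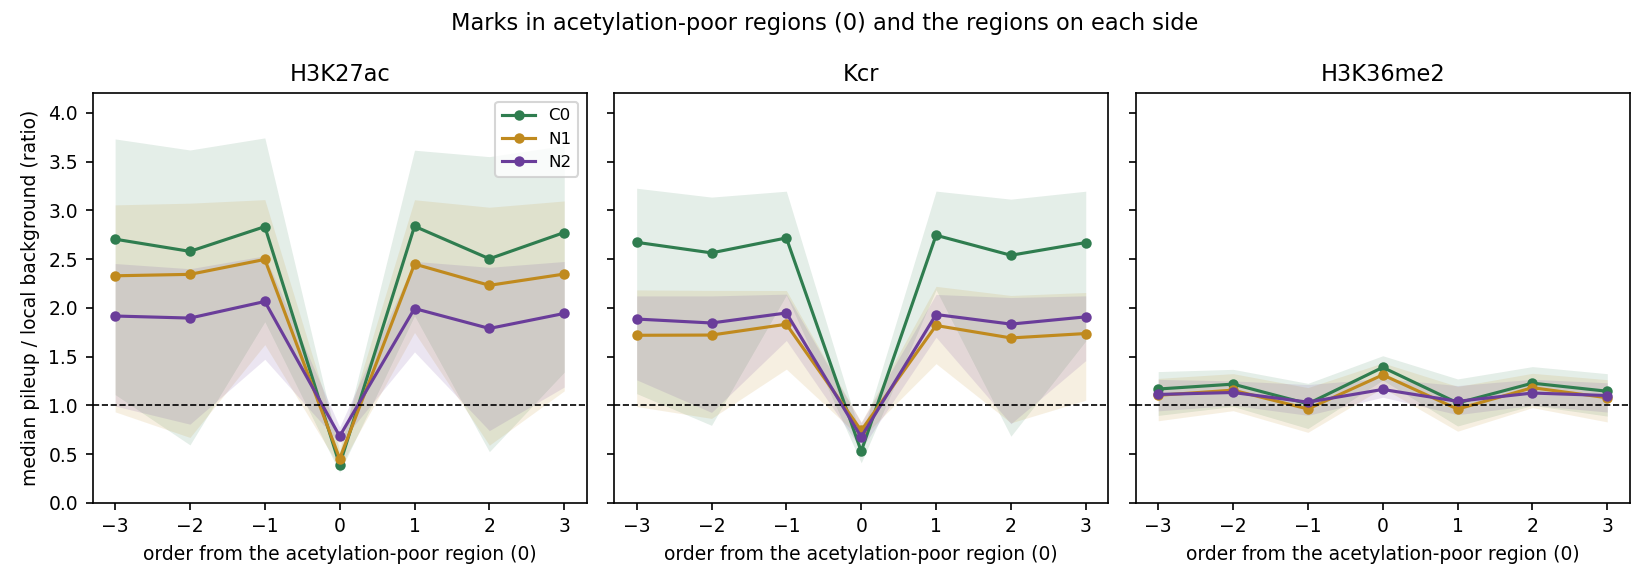
Median ratio of pileup to local background in the 530 acetylation-poor regions (position 0) and in the 3 tabulated regions on each side, in order along the chromosome, for C0, N1 and N2. Shading spans the quartiles and the dashed line is a ratio of 1. H3K27ac and Kcr dip below 1 at position 0, where the H3K36me2 median in C0 is 1.39. The rule limited H3K27ac and H3K36me2 in C0 at position 0 only.

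Of the 5 comparisons that were tested, 3 are between N2 and N1, and no C0 library enters their differences. C0 libraries were part of the same fits and so bear on the p-values of these 3. The other 2 set Kcr in N1 or N2 against Kcr in C0, whose background is nearly the one the rule used, so they are not independent of the rule. H3K27ac was compared between the deprived conditions first. Over the 530 regions the median ratio was 0.687 and 0.679 in the N2 libraries and 0.457 and 0.448 in the N1 libraries. The median log2 difference was 0.53, against -0.14 over all regions and -0.32 in the 1076 acetylated regions with H3K36me2. It was 0.46 in the 36 interior regions of the same widths with H3K27ac and H3K36me2 both under 1 in C0. These 36 are called poor in both marks. The rise was thus not particular to regions with H3K36me2 in C0. H3K27ac rose in 289 of the 530 regions (54.5%) and fell in 9 by limma at a Benjamini-Hochberg adjusted p under 0.05, where 19.6% of all regions rose and 41.7% fell. In 57 of the 530 regions the rise was 2-fold or more, as in 148 of all 3803 regions. Of the 36 regions poor in both marks, 19 rose (52.8%) and 4 fell (11.1%), and in 6 the rise was 2-fold or more. In the 530 regions the pileup moved with the ratio, with medians of 13.8 and 13.5 in N2 and 9.15 and 9.66 in N1. The background had medians of 19.2 and 19 in N2, and of 19.6 and 20 in N1. The spread of H3K27ac over all regions was also narrower in N2, where the standard deviation of log2 ratios was 0.856 and 0.864, against 1.25 and 1.22 in N1. With each library brought to the same median and standard deviation, 61 regions (11.5%) rose and 13 fell and the median difference was 0.18, where 23.8% of all regions rose. With median absolute deviations in place of standard deviations 291 (54.9%) rose and 6 fell, where 32.1% of all regions rose. When the lowest 25% of coverage was left out, 32 of the 530 regions remained, of which 3 rose and 4 fell with a median difference of -0.04, against -0.27 over the regions tested. Without N2 replicate 2, 4 regions fell.

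The largest rise was at chr16:124437-125676, where H3K27ac was 0.75 and 0.549 in N2 and 0.202 and 0.176 in N1, a log2 difference of 1.65 ± 0.23 (SE, limma adjusted p = 8.89e-06). The N2 libraries lay above the N1 libraries, and all 4 stayed below 1. At chr24:82405-83599 the ratios were 0.624 and 0.668 in N2 and 0.21 and 0.185 in N1 (log2 difference 1.6 ± 0.22, limma adjusted p = 8.08e-06). At chr4:753375-757214 they were 0.924 and 0.8 in N2 and 0.229 and 0.349 in N1 (1.52 ± 0.22, limma adjusted p = 1.39e-05). These rises brought the regions towards the background level and not above it.

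The largest fall was at chr17:162269-166306, where H3K27ac was 3.59 and 4.08 in N2 and 7.11 and 6.68 in N1 (log2 difference -0.84 ± 0.10, limma adjusted p = 2.46e-06). This call was lost with equal medians and standard deviations. At chr8:453257-454882 the ratios were 0.543 and 0.509 in N2 and 0.8 and 0.946 in N1 (-0.70 ± 0.20, limma adjusted p = 0.00544). At chr27:516104-517352 they were 0.683 and 0.82 in N2 and 1.2 and 1.2 in N1 (-0.66 ± 0.18, limma adjusted p = 0.00385). The calls on chromosomes 8 and 27 were lost when each library was centred on its median over all regions.

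H3K36me2 went the other way on the ratio scale. Its median over the 530 regions was 1.16 in both N2 libraries and 1.31 in both N1 libraries. Its median log2 difference was -0.14, against 0.05 over all regions, 0.01 in the 1076 acetylated regions with H3K36me2 and 0.41 in the 36 regions poor in both marks. H3K36me2 fell in 194 of the 530 regions (36.6%) and rose in 34, where 17.2% of all regions fell and 27.1% rose. Of the 1076 acetylated regions, 15.5% fell and 21.7% rose. The balance in the 530 regions turned when the background was left out. On the pileup alone 40 regions fell (7.55%) and 108 rose (20.4%), with a median difference of 0.06, where 2.52% of all regions fell and 53.0% rose, with a median of 0.25. The background of H3K36me2 was higher in N2 (19.3 and 19.1) than in N1 (16.5 and 16.9), and its part in the result was not tested. The spread of H3K36me2 over all regions was narrower in N2, where the standard deviation of log2 ratios was 0.330 and 0.331, against 0.497 and 0.505 in N1. A common median and standard deviation left 104 falls (19.6%, against 10.8% of all regions). Without N1 replicate 1 the count of falls was 122, and without N1 replicate 2 it was 123, with 22 rises.

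The largest falls of H3K36me2 were of similar size. At chr6:56325-59644 the ratios were 0.953 and 0.984 in N2 and 1.6 and 1.55 in N1 (log2 difference -0.68 ± 0.09, limma adjusted p = 2.76e-08). At chr26:166784-170785 they were 1.12 and 1.12 in N2 and 1.86 and 1.76 in N1 (-0.67 ± 0.09, limma adjusted p = 1.83e-08), a call that was lost on the pileup alone. At chr7:94469-96835 they were 0.899 and 0.902 in N2 and 1.47 and 1.43 in N1 (-0.67 ± 0.10, limma adjusted p = 9.24e-08). The regions on chromosomes 6 and 7 thus ended below their background in both N2 libraries.

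The largest rises of H3K36me2 followed low values in N1. At chr24:58802-59964 C0 had 1.64, the N1 libraries 0.592 and 0.834 and the N2 libraries 1.39 and 1.28, and the N2 minus N1 log2 difference was 0.90 ± 0.11 (limma adjusted p = 1.96e-09). At chr13:92699-94247 C0 had 1.24, N1 0.593 and 0.61, and N2 1.2 and 1.07 (0.89 ± 0.11, limma adjusted p = 6.17e-09). At chr1:93855-96753 C0 had 1.41, N1 0.777 and 0.822, and N2 1.43 and 1.36 (0.79 ± 0.10, limma adjusted p = 4.87e-09). In these 3 regions both N1 libraries lay below 1 and below both N2 libraries.

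Kcr after 1 day is the third comparison. The median ratio over the 530 regions was 0.728 and 0.745 in N1 and 0.528 and 0.527 in C0. The median log2 difference was 0.48, against -0.43 over all regions and -0.58 in the acetylated regions with H3K36me2. In the 36 regions poor in both marks it was -0.02. Kcr rose in 298 of the 530 (56.2%) and fell in 13, where 16.4% of all regions rose and 64.1% fell. Relative to the median of all regions, which itself moved by -0.43, 499 rose (94.2%, against 42.7% of all regions) and 0 fell, with a median difference of 1.07 in limma with centred libraries. On the pileup alone, which leaves out the background shared with the rule, 156 rose (29.4%) and 33 fell with a median difference of 0.22, where 9.31% of all regions rose and 71.4% fell. The C0 pileup itself was low in these regions, so this scale is not free of the rule either. The spread of Kcr over all regions was narrower in N1, where the standard deviation of log2 ratios was 0.711 and 0.703, against 1.13 and 1.14 in C0. At equal medians and standard deviations 148 rose (27.9%, against 32.9% of all regions), and at equal median absolute deviations 517 rose (97.5%, against 41.5%) and 0 fell. In the 26 regions left without the lowest 25% of coverage, 4 rose and 5 fell and the median difference was -0.09, against -0.56 over the regions tested. Without N1 replicate 2, 193 rose. Without C0 replicate 1 or C0 replicate 2, 8 fell, and without N1 replicate 1, 7.

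The largest rise of Kcr in N1 was at chr17:162269-166306, with 3.06 and 2.76 in N1 and 0.977 and 1.05 in C0 (log2 difference 1.5 ± 0.12, limma adjusted p = 1.31e-11). At chr9:1120828-1122154 the ratios were 0.599 and 0.884 in N1 and 0.205 and 0.326 in C0 (1.41 ± 0.23, limma adjusted p = 3.49e-06). At chr5:82423-83590 they were 0.708 and 0.802 in N1 and 0.352 and 0.212 in C0 (1.37 ± 0.22, limma adjusted p = 3.11e-06). Only the first of these 3 passed its background.

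The largest fall of Kcr in N1 was in the widest region of the set, chr29:194711-205280, with 0.915 and 0.957 in N1 and 1.63 and 1.95 in C0 (log2 difference -0.91 ± 0.15, limma adjusted p = 2.34e-06). The other large falls were at chr13:440082-441185 (0.613 and 0.813 in N1, 1.2 and 1.06 in C0, log2 difference -0.65 ± 0.18) and chr25:100757-106405 (0.565 and 0.711 in N1, 1.03 and 0.927 in C0, log2 difference -0.61 ± 0.18). All 3 calls were lost with centred libraries and with equal medians and median absolute deviations. Under that last scaling the difference on chromosome 13 turned to 0.09 and that on chromosome 25 to 0.16, and the call on chromosome 25 was also lost without N1 replicate 1.

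Kcr after 2 days rested on 1 distinct N2 library, which was taken to vary like the other Kcr groups. Its median ratio over the 530 regions was 0.676 in N2 and 0.528 and 0.527 in C0. The median log2 difference was 0.32, against -0.38 over all regions and 0.315 in the 36 regions poor in both marks. The rise was thus not particular to regions with H3K36me2 in C0. Kcr rose in 114 regions (21.5%) and fell in 3, where 7.52% of all regions rose and 56.1% fell. On the pileup alone 170 rose (32.1%, against 11.4% of all regions) and 0 fell, and with centred libraries 404 rose (76.2%, against 27.5%) and 0 fell. The standard deviation of log2 Kcr ratios over all regions was 0.743 in N2, against 1.13 and 1.14 in C0. The balance depended on the scaling of the spread. When medians and standard deviations were made equal 9 rose (1.7%, against 5.23% of all regions) and 1 fell, and with median absolute deviations 26 rose and 50 fell, with a median difference of -0.09, where 14.9% of all regions rose and 15.4% fell. Of the 26 regions left without the lowest 25% of coverage, 6 rose and 2 fell. Without C0 replicate 1, 1 fell.

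The largest rises in N2 were at chr17:664458-666154 (0.84 in N2, 0.385 and 0.351 in C0, log2 difference 1.15 ± 0.25), chr7:220162-221231 (0.632 in N2, 0.231 and 0.326 in C0, 1.13 ± 0.27) and chr28:273094-274527 (0.813 in N2, 0.371 and 0.354 in C0, 1.12 ± 0.24). Their limma adjusted p-values were 0.000206, 0.000646 and 0.000201 in that order, and all 3 calls were lost with equal medians and standard deviations. The 3 falls were at chr23:575618-576800 (0.394 in N2, 0.705 and 0.53 in C0), chr29:194711-205280 (1.18 in N2, 1.63 and 1.95 in C0) and chr11:528516-530592 (0.926 in N2, 1.29 and 1.27 in C0). None of these falls was called on the pileup alone or with centred libraries. Without C0 replicate 1 the calls on chromosomes 23 and 11 were lost, without C0 replicate 2 those on chromosomes 29 and 11, and without N1 replicate 1 that on chromosome 23. The calls on chromosomes 29 and 11 were lost with equal medians and standard deviations, and that on chromosome 11 with the replicate number as a block.

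Between N2 and N1, few regions were called for Kcr. The comparison rested on 1 distinct N2 library, so few calls do not mean that few regions changed. The median ratio was 0.676 in N2 and 0.728 and 0.745 in N1. The median log2 difference was -0.14, against 0.01 over all regions and 0.29 in the 36 regions poor in both marks. Kcr rose in 4 regions and fell in 19 (3.58%), where 11.4% of all regions rose and 7.47% fell. On the pileup alone 74 rose (14.0%) and 0 fell with a median difference of 0.22, where 53.8% of all regions rose with a median of 0.35. The background was higher in N2 (20.3) than in N1 (15.7 and 16.0). With centred libraries 2 rose and 52 fell (9.81%, against 17.2% of all regions), with equal medians and standard deviations 7 rose and 83 fell (15.7%, against 25.0%), and with median absolute deviations 0 rose and 499 fell (94.2%, against 37.0%). Of the 26 regions left without the lowest 25% of coverage, 3 rose and 1 fell and the median difference was 0.20. Without C0 replicate 1, 7 rose and 60 fell, and without C0 replicate 2, 7 rose and 61 fell. Without N1 replicate 1 the falls numbered 3, and without N1 replicate 2 they numbered 4.

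The largest rises of Kcr in N2 over N1 were at chr19:134817-138987 (1.03 in N2, 0.622 and 0.55 in N1, log2 difference 0.79 ± 0.23), chr22:83434-86943 (1.59 in N2, 0.999 and 0.932 in N1, 0.71 ± 0.19) and chr5:1257024-1260959 (1.36 in N2, 0.83 and 0.977 in N1, 0.58 ± 0.19). None of these 3 was called with equal medians and median absolute deviations, and the difference on chromosome 19 turned to -0.03. Without N1 replicate 2 the call on chromosome 19 was lost, and without N1 replicate 1, or with centred libraries, that on chromosome 5. The largest falls were at chr2:1508440-1509475 (0.348 in N2, 0.599 and 0.781 in N1, log2 difference -0.93 ± 0.26), chr5:1232664-1234975 (0.43 in N2, 0.853 and 0.781 in N1, -0.89 ± 0.25) and chr3:173984-177339 (0.384 in N2, 0.762 and 0.699 in N1, -0.89 ± 0.25). None of these 3 falls was called on the pileup alone or without N1 replicate 2, and those on chromosomes 3 and 5 were also lost without N1 replicate 1.

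**Figure D3:**
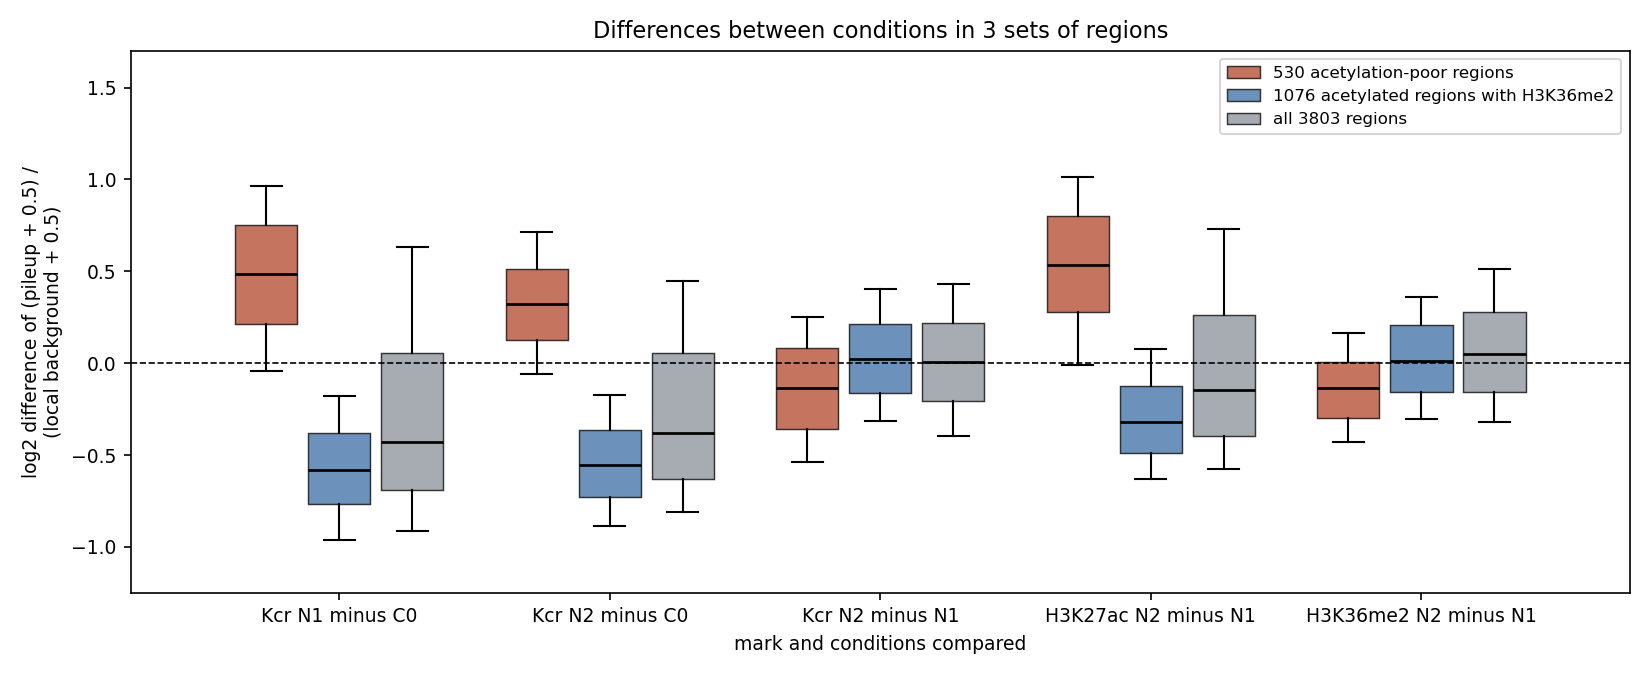
Log2 difference between conditions for the 5 comparisons that were tested, of which those of Kcr against C0 share a background with the rule, in the 530 acetylation-poor regions (red), the 1076 acetylated regions with H3K36me2 (blue) and all 3803 regions (grey). Boxes span the quartiles with the median as a line and whiskers run between the tenth and ninetieth percentiles. For H3K27ac in N2 minus N1 the red median is 0.53 and the blue median is -0.32.

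Differences from C0 in the 2 marks that chose the regions are a description. H3K27ac had a median log2 difference of 0.19 in N1 minus C0 and 0.77 in N2 minus C0, against -0.13 and -0.31 over all regions. Its mean ratio was ordered C0, N1, N2 from lowest to highest in 322 regions (60.8%), against 17.1% of all regions. H3K36me2 had a median difference of -0.11 in N1 minus C0 and -0.26 in N2 minus C0, against -0.07 and -0.01 over all regions. It was ordered C0, N1, N2 from highest to lowest in 220 regions (41.5%), against 21.2% of all regions. The rule favours both orders, since it took regions with low H3K27ac and high H3K36me2 in C0. The H3K36me2 pileup in C0 was on another scale, since its median over the 530 regions was 22.1 and 22.5 in N1 and 45.2 in C0, and that of its background 16.5 and 16.9 in N1 and 32.1 in C0, so that only the ratio can be set against C0. Across the 530 regions the H3K36me2 ratios in C0 and N1 had a Pearson r of 0.241, against 0.846 over all regions, in a set whose C0 values span only 1.03 to 2.00.

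The largest H3K27ac differences from C0 in N1 were at chr17:162269-166306 (7.11 and 6.68 in N1, 0.611 and 0.539 in C0), chr12:113172-119603 (3.92 and 3.89 in N1, 0.812 and 0.734 in C0) and chr16:53150-54297 (0.896 and 0.993 in N1, 0.377 and 0.423 in C0). The lowest were at chr25:301530-305754 (0.347 and 0.418 in N1, 0.86 and 0.956 in C0), chr6:187031-192375 (0.356 and 0.426 in N1, 1.02 and 0.793 in C0) and chr14:886027-887910 (0.275 and 0.438 in N1, 0.833 and 0.681 in C0). In N2 the largest after chr17:162269-166306 were at chr25:487759-491870 (0.803 and 0.758 in N2, 0.174 and 0.243 in C0) and chr1:1595350-1596975 (0.824 and 0.639 in N2, 0.216 and 0.168 in C0). The lowest in N2 were again at chr25:301530-305754 (0.602 and 0.512) and chr14:886027-887910 (0.613 and 0.568), with chr5:1291130-1293275 between them (0.747 and 0.684 in N2, 0.983 and 0.86 in C0).

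For H3K36me2 the largest differences in N1 were at chr11:1076096-1077168 (1.41 and 1.84 in N1, 1.05 in C0), chr10:1084281-1088763 (1.45 and 1.72 in N1, 1.04 in C0) and chr24:555990-558965 (1.44 and 1.53 in N1, 1.06 in C0), all close to the limit of the rule in C0. The lowest were at chr24:58802-59964 and chr13:92699-94247, given above, and at chr20:416732-418339 (0.749 and 0.821 in N1, 1.54 in C0). In N2 the largest were at chr17:162269-166306 (1.59 and 1.71 in N2, 1.06 in C0), chr13:577278-579831 (1.46 and 1.4 in N2, 1.06 in C0) and chr7:1089651-1093652 (1.65 and 1.37 in N2, 1.13 in C0). The lowest were at chr1:575834-581472 (1.13 and 1.11 in N2, 1.97 in C0), chr26:523417-524571 (0.816 and 0.885 in N2, 1.49 in C0) and chr7:75583-77212 (0.902 and 0.904 in N2, 1.56 in C0).

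Clear enrichment of an acyl mark during deprivation was rare in these regions, which the rule favours by taking low H3K27ac in C0. Mean H3K27ac or Kcr reached 1.5 in N1 or N2 in 5 of the 530 regions, a group chosen after the values were seen. Over all regions mean H3K27ac reached 1.5 in 66.0% in N1 and 63.1% in N2, and mean Kcr in 60.0% and 68.9%. In the 36 regions poor in both marks the same shares were 16.7%, 16.7%, 8.33% and 27.8%. Among the 5 regions, only chr17:162269-166306 and chr12:113172-119603 reached 2. The first went to 6.89 for mean H3K27ac in N1 and 3.84 in N2, and its Kcr was 3.06 and 2.76 (N1) and 2.13 (N2). Its H3K36me2 values were 1.06 (C0), 1.16 and 1.14 (N1) and 1.59 and 1.71 (N2), so that all 3 marks were above background together in N1 and in N2. At chr12:113172-119603 H3K27ac had 0.812 and 0.734 (C0), 3.92 and 3.89 (N1) and 2.33 and 2.71 (N2), and Kcr 1.41 and 1.13 (C0), 1.92 and 1.78 (N1) and 2.14 (N2). The other 3 were at chr22:83434-86943 (Kcr 1.59 in N2), chr28:428386-431734 (mean H3K27ac 1.62 in N1, Kcr 1.63 in N2) and chr9:745454-749559 (Kcr 1.88 in N2). The region on chromosome 28 lay in the middle of the longest run of acetylation-poor regions, between chr28:422379-428083 and chr28:433074-439290, whose mean H3K27ac in N1 was 0.603 and 0.322. Which genes these regions cover was not analysed here.

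**Figure D4:**
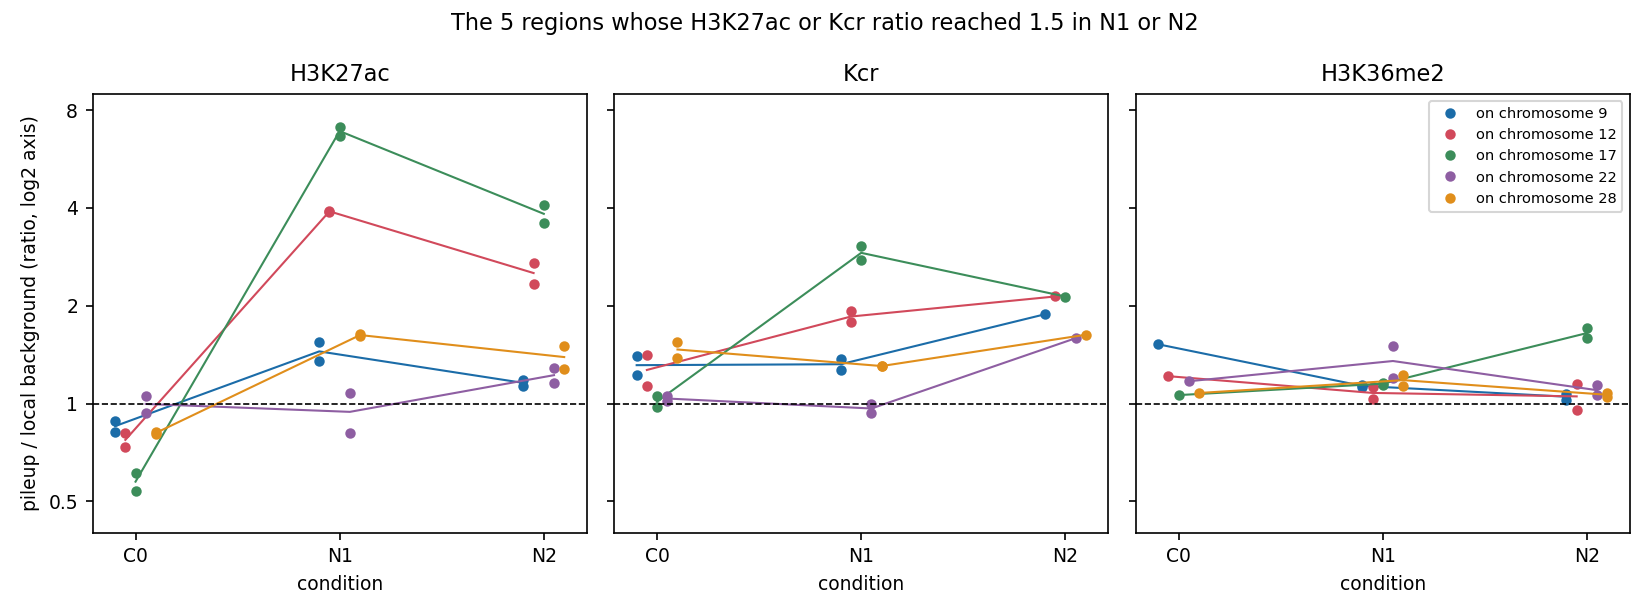
Ratio of pileup to local background (log2 axis) in C0, N1 and N2 for the 5 acetylation-poor regions, named by chromosome, whose mean H3K27ac or Kcr reached 1.5 in N1 or N2. Points are libraries, lines join the means, libraries with identical values are drawn once and the dashed line is a ratio of 1. The region on chromosome 17 has mean H3K27ac of 6.89 in N1 and 3.84 in N2.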

How the data were processed

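The authors trimmed their reads (Trim Galore), aligned them (BWA), marked duplicates (Picard) and called broad peaks over input (MACS2), with deepTools also named in the submitters' processing notes. The study takes its assembly and annotation from the NanDeSyn database and names a release for its Hi-C data, while for ChIP-seq it names only the reference genome of the species. Tool versions for ChIP-seq and the merging of peaks were not given in the sources used here, and coordinates are as deposited. The authors deposited 9 tables of the same 3803 regions, each with a coverage signal (pileup) and local background (lambda) per library. Their columns of fold change and p-value were not used. A further 36 columns belong to libraries outside the labels and were not used. The inverse step for H3K36me2 in C0 is lower than the depth listed by the study by a factor of 2, for a reason that was not tested.

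Levels are pileup over lambda. Differences are on the scale log2(pileup + 0.5) minus log2(lambda + 0.5), which makes changes of low values look smaller. With limma-trend (limma 3.58.1, R 4.3.3) each mark was fitted over all regions and conditions, with identical libraries entered once, leaving 3 residual degrees of freedom for H3K27ac, 2 for Kcr and 2 for H3K36me2. P-values were adjusted over 3803 regions and called under 0.05. In data simulated for N2 against N1, changes of 0.5 and 1 on the log2 scale were recovered in 53% and 94% of regions for H3K27ac, 29% and 79% for Kcr, and 65% and 93% for H3K36me2.

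Regions were named when they had the 3 largest differences in each direction among called regions whose libraries did not overlap, the 3 largest and smallest described differences from C0, the 3 highest or lowest C0 levels, a place next to a limit of the rule, or a place in the longest run. The members, comparisons and lists were chosen with earlier results of these data known. Alternatives were the pileup alone, library medians set to 0, equal medians and spreads, a pseudocount of 1, leaving out the lowest 25% of coverage, leaving out each replicate, a replicate block, and stricter limits (H3K27ac under 0.8, H3K36me2 at least 1.1). The plan for equal spreads named no measure of spread. The median absolute deviation was run first, and the standard deviation was added after that result was seen.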

Additional observations from a re-analysis of the deposited data

Results flagged for a closer look

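Levels on day 2 differed from those on day 1 by the direct test of N2 against N1. This was so for 298 of the 530 regions in H3K27ac (289 higher and 9 lower in N2), for 228 in H3K36me2 (34 higher and 194 lower) and for 23 in Kcr (4 higher and 19 lower), by limma at an adjusted p under 0.05. Over all regions the shares called in either direction were 61.3% in H3K27ac, 44.3% in H3K36me2 and 18.9% in Kcr, against 56.2%, 43.0% and 4.34% of the 530, so a difference between the days was called no more often in these regions than in general. For H3K27ac 54.5% of the 530 were higher, against 19.6% of all regions, and for H3K36me2 36.6% were lower, against 17.2%. With equal medians and standard deviations these shares were 11.5% against 23.8% for H3K27ac, and 19.6% against 10.8% for H3K36me2. Whether the marks differ from each other was not tested.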

How the results depend on the processing

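Of the 30 region comparisons named, 11 kept their direction and call under every alternative run, and the 3 that turned did so with equal medians and median absolute deviations, the planned reading of equal spreads (Kcr in N1 minus C0, 0.0904 at chr13:440082-441185 and 0.16 at chr25:100757-106405, and Kcr in N2 minus N1, -0.033 at chr19:134817-138987). The standard deviation was added after that result was seen. Counts below are of the 530 regions, higher then lower, and the cause of a shift was not tested except where stated.

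On the pileup alone the counts were 156 and 33 for Kcr N1 against C0, 170 and 0 for Kcr N2 against C0, 74 and 0 for Kcr N2 against N1, and 108 and 40 for H3K36me2 N2 against N1, where all 3803 regions gave 354 and 2717, 435 and 1532, 2045 and 9, and 2016 and 96. With library medians set to 0 they were 499 and 0, 404 and 0, and 2 and 52 for the same Kcr comparisons, and 407 and 2 for H3K27ac N2 against N1 (all regions 1625 and 533, 1046 and 527, 225 and 654, and 1382 and 585). With equal medians and median absolute deviations the Kcr counts were 517 and 0, 26 and 50, and 0 and 499 (all regions 1579 and 579, 567 and 586, and 476 and 1407). Equal medians and standard deviations gave 148 and 9, 9 and 1, and 7 and 83, with 61 and 13 for H3K27ac and 47 and 104 for H3K36me2 (all regions 1251 and 487, 199 and 142, 335 and 951, 907 and 332, and 804 and 409). Where a count was 0 in limma, at most 1 region had an unadjusted p under 0.05 in that direction. Without the lowest 25% of coverage only 26 of the 530 regions were left for Kcr and 32 for H3K27ac, which by itself lowers the counts. They were 4 and 5, 6 and 2, and 3 and 1 for Kcr, with medians of -0.0918, 0.12 and 0.20, and 3 and 4 for H3K27ac, with a median of -0.035. The medians for Kcr N1 against C0, Kcr N2 against N1 and H3K27ac thus changed sign, and the cause was not tested. Over the 2852 regions tested the counts were 67 and 2428, 53 and 2158, 476 and 273, and 188 and 1580.

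Leaving out each replicate gave 193 to 299 higher and 7 to 12 lower for Kcr N1 against C0, 87 to 145 and 1 to 3 for Kcr N2 against C0, 3 to 7 and 3 to 61 for Kcr N2 against N1, 198 to 266 and 4 to 10 for H3K27ac, and 22 to 39 and 122 to 192 for H3K36me2. It gave median differences from C0 of 0.19 to 0.21 (N1) and 0.71 to 0.77 (N2) for H3K27ac, and of -0.11 to -0.10 (N1) and -0.26 to -0.26 (N2) for H3K36me2.

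The described medians moved too. H3K27ac in N1 minus C0 was 0.42 on the pileup alone, 0.36 with medians set to 0, 0.0903 with equal median absolute deviations and 0.0922 with equal standard deviations. H3K27ac in N2 minus C0 was 0.92, 1.22, 0.71 (median absolute deviations) and 0.27 (standard deviations), 0.73 with a pseudocount of 1, and 0.25 without low coverage. H3K36me2 in N1 minus C0 was -1.01, -0.0512, -0.04 and -0.0345 under those scalings, -0.11 without low coverage and -0.12 with stricter limits. H3K36me2 in N2 minus C0 was -0.95, -0.18, -0.15 and -0.12, -0.26 without low coverage and -0.28 with stricter limits.

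With the replicate number as a block, the counts were 298 and 11, 105 and 2, and 4 and 25 for Kcr, 282 and 7 for H3K27ac and 34 and 184 for H3K36me2, and the H3K36me2 medians were -0.10 in N1 and -0.28 in N2. Libraries of the same mark and number did not deviate together between conditions (r from -0.023 to 0.034). Since libraries of a group differed by less than independent counts would, this check cannot tell whether they were paired.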
